A study of Mus musculus with 9 samples.

Results

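The 6 entries of the count table for ribosomal RNA and nuclear noncoding RNA were followed in mouse hypothalamus: Rn45s (Entrez 100861531), Rn18s (19791), Malat1 (72289), Neat1 (66961), Miat (330166) and Snhg11 (319317). They are 6 of the 27179 genes listed, and all 6 were among the 17344 genes with enough reads to be tested. They were picked by symbol, and they were chosen by their levels in the HFD mice against the other mice, which were already known. Their values in the comparisons that hold HFD are therefore given as a description with no test. Their comparison between HFD+Mino and Control was tested, though the libraries of these groups also took part in the choice.

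RNA came from tissue punches of the paraventricular nucleus of the hypothalamus (PVN), a centre of neuroendocrine and metabolic control, in male wild type C57BL/6 mice (C57BL/6J in the study's methods), with 3 mice in each of 3 groups. Control mice were kept on chow (16% of calories from fat) and HFD mice on a high fat diet (60%), each for 12 weeks. HFD+Mino mice were kept on the 60% fat diet for the same 12 weeks and drank minocycline, a tetracycline with anti-inflammatory action, in their water during the last 6 weeks (40 mg/kg/day). All 9 mice were on the same background and began their diet at 35 days of age, and a punch holds every cell type of the nucleus and its borders.

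Ribosomal RNA is transcribed by RNA polymerase I in the nucleolus as a long precursor, which is cut and modified under the guidance of small nucleolar RNAs into the mature 18S, 5.8S and 28S RNAs. Rn45s stands for that precursor and Rn18s for the mature 18S RNA, and both come from tandem gene copies, so their reads can match either entry. Malat1 and Neat1 are neighbouring long noncoding RNAs that stay in the nucleus, Malat1 in speckles that store splicing factors and Neat1 as the scaffold of paraspeckles. Miat is a neuronal nuclear RNA that binds splicing factors, and Snhg11 is a neuronal host of small nucleolar RNAs, which RefSeq types as a long noncoding RNA and GENCODE M21 as protein coding.

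Malat1 and Neat1 share an unusual way of ending, and their ends are shown here because they set these RNAs apart from ordinary messenger RNAs. RNase P cuts Malat1, and the long form of Neat1, just upstream of a tRNA-like small RNA, so that both end in a stretch of A that the genome encodes. The sequences below were read from the GRCm38 genome and the GENCODE M21 annotation, on the minus strand, and capitals mark the longest run of A in each end. The 50 bases of Malat1 that precede its tRNA-like RNA, mascRNA, lie at chr19:5795982-5796031, mascRNA itself at chr19:5795924-5795981 (position from RefSeq), and the last 50 bases of the long Neat1 transcript at chr19:5824708-5824757.
Malat1 end: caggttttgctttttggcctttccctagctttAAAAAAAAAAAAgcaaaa
mascRNA: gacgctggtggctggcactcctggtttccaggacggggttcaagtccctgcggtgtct
Neat1 end: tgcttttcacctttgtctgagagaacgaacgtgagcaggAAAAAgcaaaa
The run of A was 12 bases long in Malat1 and 5 in Neat1, and both ends closed with the same 6 letters, gcaaaa. Malat1 spans chr19:5795690-5802672 as 1 exon of 6983 bases, and Neat1 spans chr19:5824708-5845478, so that 22035 bases separate the 2 genes. A run of 12 A, the longest anywhere in the Malat1 transcript, was reached by 11.16% of the 15625 tested genes that have an annotated transcript. The longest run was 7 bases in Neat1, 8 in Snhg11 and 4 in Miat, beside a median of 6.

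Miat is known for repeats of TACTAAC, the letters of the branch point that splicing factor SF1 recognises, and the stretch in which they lie closest together is shown with the repeats in capitals. It runs from position 5589 to 5668 of the 9163 bases of transcript Miat-205, whose gene spans chr5:112213228-112229395 on the minus strand.
Miat repeats: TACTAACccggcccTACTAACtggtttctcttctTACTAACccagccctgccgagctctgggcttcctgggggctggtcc
The transcript held 6 copies in all, the first starting at position 4941 and the last at 5623. Only 2 of the 15625 genes, Miat included, had that many, and the median gene had 0.

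The libraries held between 17728590 reads assigned to genes (HFD replicate 1) and 42326213 (Control replicate 1). Levels are given in CPM, reads scaled to a common library size by edgeR's TMM method. A gene was called at an adjusted p under 0.01 (quasi-likelihood test of edgeR, Benjamini-Hochberg adjusted over all tested genes) and a fold change of at least 1.5. Some libraries stood apart in cell type markers: 8 oligodendrocyte markers summed to 29738 CPM in Control replicate 1 and to between 2286 and 6981 CPM in the other 8 libraries, and PVN markers such as the peptide hormone genes summed to 40.4 CPM in that same Control library. The PVN markers summed to 37767 and 32000 CPM in the HFD+Mino libraries numbered 1 and 2, and to between 966 and 3780 CPM in the remaining 6 libraries. Choroid plexus and ependymal markers also moved with the groups: 6 markers summed to between 9.14 and 57.02 CPM in Control, between 63.6 and 114 CPM in HFD and between 116 and 192.5 CPM in HFD+Mino, with no overlap, and 0 of the 5 tested were called by edgeR. Of 8 astrocyte markers, 1 was called higher in HFD against Control and lower in HFD+Mino against HFD, while their summed levels overlapped between Control (4451 to 6501 CPM) and HFD (4836 to 5664 CPM). The part of these cell types in the values below was not tested. None of the PVN or cell type markers was at 0 in all samples. In a bulk sample, fewer cells of a type and less RNA per cell cannot be told apart.

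The Rn45s entry, which stands for the ribosomal RNA precursor, was far higher in the HFD mice than in either other group. The precursor contains the mature ribosomal RNAs, so reads of this entry cannot be assigned to precursor rather than mature RNA. The libraries were primed on runs of A, and the part of this in the values was not tested. The level of Rn45s was 461, 356 and 239 CPM in Control replicates 1 to 3, 3829, 3567 and 3477 CPM in the HFD replicates, and 1346, 755 and 426 CPM in the HFD+Mino replicates. All 3 HFD mice lay far above the other 6, which overlapped between Control and HFD+Mino. The group means were 352 ± 111, 3624 ± 183 and 842.5 ± 466 CPM (SD, n = 3). HFD was 10.3-fold above Control (log2 fold change 3.36 ± 0.41, SE), and HFD+Mino was 4.30-fold below HFD (−2.10 ± 0.39).

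In raw reads the Rn45s entry took 18553, 12614 and 8120 reads in Control, 76280, 122999 and 139663 in HFD, and 39329, 20316 and 15610 in HFD+Mino. These were between 0.0266% and 0.0438% of a Control library, between 0.350% and 0.430% of an HFD library and between 0.0450% and 0.113% of an HFD+Mino library. Rn45s thus ranked 6th to 8th among all genes by reads in the HFD libraries. Its rank lay between 333 and 651 in Control and between 94 and 304 in HFD+Mino.

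Rn18s, which stands for the RNA of the small ribosomal subunit, followed the Rn45s entry at far fewer reads. Its level was 18.6, 11.9 and 5.77 CPM in Control, 92.9, 93.0 and 92.1 CPM in HFD, and 59.7, 29.9 and 15.7 CPM in HFD+Mino. The HFD mice were again highest and almost equal to one another, and the other groups overlapped. The means were 12.1 ± 6.41, 92.7 ± 0.460 and 35.1 ± 22.4 CPM (SD, n = 3), with HFD 7.66-fold above Control (log2 2.94 ± 0.50) and HFD+Mino 2.64-fold below HFD (−1.40 ± 0.47).

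Reads that could belong to both entries may have been split between them, since the mature RNA is part of the precursor, and how such reads were assigned is not given in the sources used here. There were 24.8, 29.9 and 41.4 Rn45s reads for each Rn18s read in Control, 41.2, 38.4 and 37.7 in HFD, and 22.6, 25.3 and 27.2 in HFD+Mino. The HFD ratios lay above every HFD+Mino ratio and inside the Control range.

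Between HFD+Mino and Control, neither ribosomal RNA entry passed the thresholds. The difference between these groups did not choose the members, but their libraries took part in the choice. The test is therefore not independent of it. Rn45s was 2.39-fold higher in HFD+Mino (log2 1.26 ± 0.38, adjusted p = 0.134 and unadjusted p = 0.00665 in edgeR's quasi-likelihood test). Rn18s was 2.90-fold higher (log2 1.53 ± 0.48, adjusted p = 0.139, unadjusted p = 0.00804, same edgeR test). Same-numbered Control and HFD+Mino samples deviated together, which the labels do not explain. A block chosen because the counts deviate together tends to shrink the error. Its adjusted p values, here and below, are therefore a description with no test. When those groups alone were blocked by replicate number, a fit called the paired fit below, both entries passed. The log2 fold change was 1.15 ± 0.17 for Rn45s (edgeR adjusted p = 0.00581) and 1.49 ± 0.16 for Rn18s (edgeR adjusted p = 0.00509). HFD samples carry no block in the paired fit. In its comparisons with HFD, spread between mice of the other group leaves the error but stays in that group's mean. Errors there are therefore understated, and calls there are a description only. With the block extended to all 9 samples they did not pass (edgeR adjusted p = 0.0889 for each). That block also covers the HFD samples by number. Their deviations from the group mean correlated negatively with those of same-numbered samples of the other groups (r between −0.232 and −0.006). The difference of Rn45s also passed without HFD+Mino replicate 3 (log2 1.57 ± 0.31, edgeR adjusted p = 0.00835).

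**Figure D1:**
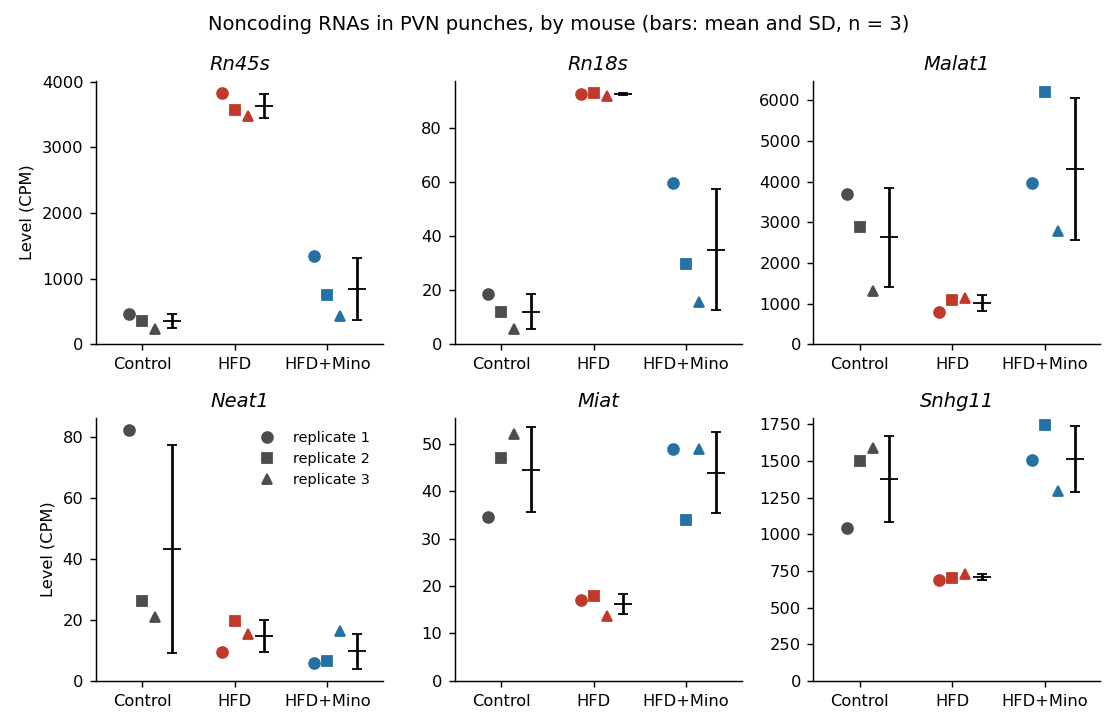
Level of each of the 6 RNAs in CPM (linear axis from 0) in every mouse, by group, with marker shape for the replicate number and a bar for mean and SD (n = 3). Rn45s and Rn18s are highest in the 3 HFD mice, Malat1, Miat and Snhg11 are lowest in them, and Neat1 is highest in Control replicate 1 at 82.6 CPM.

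Malat1, the speckle RNA, was lower in the HFD mice than in the others. Its level was 3699, 2878 and 1297 CPM in Control, 789.5, 1099 and 1144 CPM in HFD, and 3955, 6200 and 2778 CPM in HFD+Mino. Every HFD mouse lay below the other 6, though Control replicate 3 came close to them, and HFD+Mino overlapped with Control. The means were 2624 ± 1221, 1011 ± 193 and 4311 ± 1738 CPM (SD, n = 3). HFD was 2.596-fold below Control (log2 −1.38 ± 0.39), and HFD+Mino was 4.26-fold above HFD (2.09 ± 0.40). Between HFD+Mino and Control the log2 fold change of 0.72 ± 0.39 did not pass (edgeR adjusted p = 0.305).

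Within Control and within HFD+Mino, the order of the mice in Malat1 was also their order in the share of reads from the mitochondrial genome. That share was 3.50%, 2.69% and 1.21% in Control replicates 1 to 3 and 4.68%, 6.21% and 3.20% in the HFD+Mino replicates. The HFD libraries, at 3.67%, 3.21% and 3.14%, did not share this order, and their shares lay within the range of the other 6 while their Malat1 levels did not. The part of mitochondrial reads in these values was not tested.

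Malat1 and the Rn45s entry moved oppositely in HFD, so their ratio separated the HFD mice from all others. There were 8.03, 8.08 and 5.43 Malat1 reads for each Rn45s read in Control, 0.206, 0.308 and 0.329 in HFD, and 2.94, 8.22 and 6.52 in HFD+Mino. These are ratios of reads within a library and not of molecules. The 4 long noncoding RNAs together took between 0.329% and 0.464% of the reads in Control, between 0.169% and 0.192% in HFD and between 0.437% and 0.701% in HFD+Mino.

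Neat1 was lower in both groups on the high fat diet than in Control, with a wide spread in Control. Its level was 82.6, 26.3 and 20.9 CPM in Control, 9.44, 19.7 and 15.3 CPM in HFD, and 5.99, 6.65 and 16.4 CPM in HFD+Mino. The HFD mice lay just below the lowest Control mouse and overlapped with HFD+Mino. The means were 43.3 ± 34.2, 14.8 ± 5.16 and 9.67 ± 5.81 CPM (SD, n = 3). HFD was 2.92-fold below Control (log2 −1.54 ± 0.55), and without Control replicate 1 the log2 fold change was −0.67. The log2 fold change of HFD+Mino against HFD was −0.61 ± 0.55, and it was 0.10 when a trend on transcript length was removed from each library.

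Between HFD+Mino and Control, Neat1 had the largest difference of the 6 members. It was 4.46-fold lower in HFD+Mino (log2 −2.16 ± 0.57, adjusted p = 0.132 and unadjusted p = 0.00275 in edgeR's quasi-likelihood test), and every HFD+Mino mouse lay below every Control mouse. DESeq2 called it (log2 −2.15, DESeq2 adjusted p = 0.00663). Without Control replicate 1 the log2 fold change was −1.29, and without HFD+Mino replicate 3 it was −2.78.

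The level of Neat1 moved in part with the oligodendrocyte markers across the libraries. The 8 markers summed to 29738, 5985 and 3802 CPM in Control replicates 1 to 3, to 2720, 6981 and 4765 CPM in HFD, and to 2463, 2286 and 5972 CPM in HFD+Mino. The library with the most marker signal was the library with the most Neat1, and the 3 libraries with the least were those with the least Neat1. In Control and in HFD the order of the mice was the same in both. Across groups the order did not hold: Neat1 was at 20.9 CPM in Control replicate 3 and at 16.4 CPM in HFD+Mino replicate 3, which had more marker signal. Control replicate 2, with marker signal close to that of HFD+Mino replicate 3, had Neat1 at 26.3 CPM. None of the 8 markers was called in any of the 3 comparisons, and their part in the Neat1 values was not tested.

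**Figure D2:**
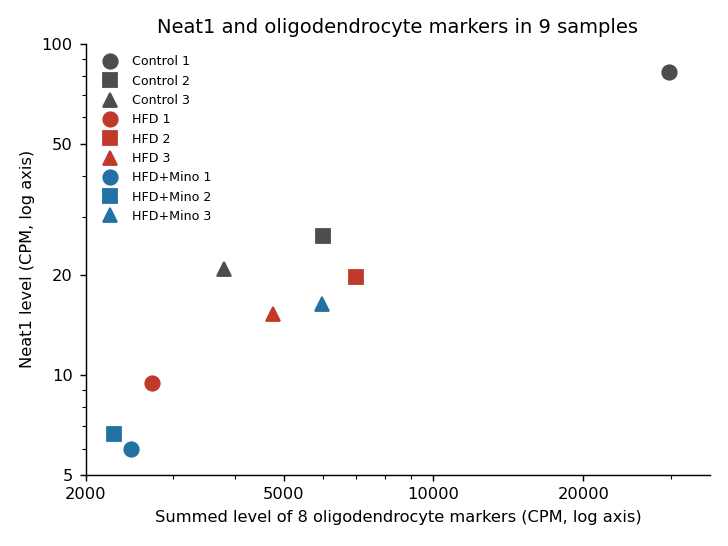
Neat1 level against the summed level of 8 oligodendrocyte markers in each of the 9 libraries, both in CPM on log axes, with color for group and shape for replicate. Control replicate 1 stands alone at the upper right (29738 and 82.6 CPM), and HFD+Mino replicates 1 and 2 are lowest in both.

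The neighbours Malat1 and Neat1 did not keep a common ratio. There were 44.8, 109 and 62.1 Malat1 reads for each Neat1 read in Control, 83.7, 55.7 and 74.98 in HFD, and 660.3, 932 and 169.8 in HFD+Mino. Control and HFD overlapped, and all 3 HFD+Mino mice lay above them. Over the 9 samples the Pearson correlation of their log2(CPM + 1) was −0.03, a description over libraries that share the group differences.

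Miat was lower in the HFD mice and nearly equal in the other groups. Its level was 34.6, 46.9 and 52.1 CPM in Control, 17.02, 17.9 and 13.8 CPM in HFD, and 48.9, 34.0 and 48.8 CPM in HFD+Mino. The HFD mice formed a tight set below all others. The means were 44.5 ± 8.99, 16.2 ± 2.16 and 43.9 ± 8.57 CPM (SD, n = 3), so that HFD was 2.75-fold below Control (log2 −1.46 ± 0.25) and HFD+Mino was 2.71-fold above HFD (1.44 ± 0.25). Between HFD+Mino and Control the log2 fold change was −0.02 ± 0.24 (edgeR adjusted p = 0.969).

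Snhg11 was also lowest in the HFD mice, with a smaller difference than Miat. Its level was 1042, 1499 and 1591 CPM in Control, 691, 703 and 730.0 CPM in HFD, and 1505, 1742 and 1294 CPM in HFD+Mino. The HFD mice were close to one another and below the other 6. The means were 1377 ± 294, 708 ± 20.2 and 1514 ± 224 CPM (SD, n = 3), with HFD 1.95-fold below Control (log2 −0.96 ± 0.23) and HFD+Mino 2.14-fold above HFD (1.10 ± 0.23). HFD+Mino against Control gave 0.14 ± 0.22 (edgeR adjusted p = 0.745). Both Miat and Snhg11 are neuronal, and 14 neuron markers summed to between 8558 and 11387 CPM in Control, between 7032 and 10089 CPM in HFD and between 7748 and 9848 CPM in HFD+Mino, ranges that overlap, with none of the 14 called. The median log2 fold change of the markers was −0.02 in HFD against Control, −0.43 in HFD+Mino against HFD and −0.28 in HFD+Mino against Control. The part of neurons in the values of Miat and Snhg11 was not tested.

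**Figure D3:**
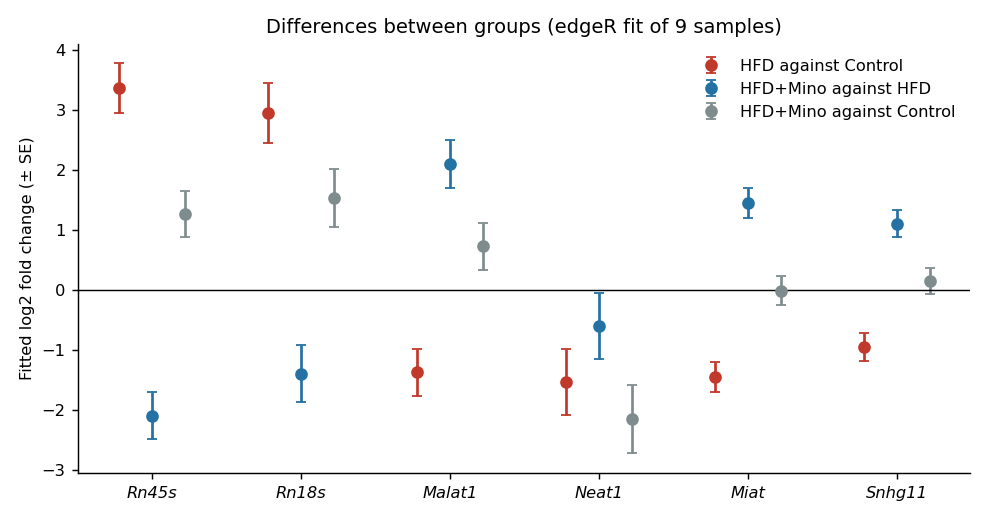
Fitted log2 fold change (edgeR, 9 samples) of each of the 6 RNAs in the 3 comparisons, with SE bars. In HFD against Control Rn45s and Rn18s lie above 0 and the 4 long noncoding RNAs below it, and all except Neat1 have the opposite sign in HFD+Mino against HFD.

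Both comparisons with HFD use the same 3 HFD libraries, so their opposite signs are not independent of each other. In HFD against Control, 2 of the 6 members met the call thresholds on the higher side (Rn45s and Rn18s), beside 0.317% of all tested genes, and 1 on the lower side (Miat), beside 1.42%. In HFD+Mino against HFD, 2 met them on the higher side (Malat1 and Miat), beside 1.98% of tested genes, and 1 on the lower side (Rn45s), beside 2.16%. Since these contrasts chose the members, nothing is read from the counts.

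All 3 HFD samples lay above all Control samples in 2 members, beside 19.7% of tested genes, and below them in 4, beside 16%. HFD+Mino lay wholly above HFD in 3 members (23.3% of tested genes) and wholly below in 2 (23.5%). HFD lay above both other groups in 2 members (13.4%) and below both in 3 (9.62%). In HFD+Mino against Control, 0 members were called higher (0% of tested genes) and 0 lower (0%) by edgeR's quasi-likelihood test. In that comparison 3697 genes (21.3%) had an unadjusted p under 0.05, and DESeq2 called 276. Only Neat1 had groups that did not overlap there, on the lower side, beside 10.1% of tested genes below and 8.93% above.

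Per kilobase of exon, the 4 long noncoding RNAs kept 1 order of mean level in every group, namely Malat1, Snhg11, Miat and Neat1. Malat1 had means of 376 ± 175 CPM per kb (Control), 145 ± 27.7 (HFD) and 617 ± 249 (HFD+Mino), each with its SD over 3 mice. Snhg11 was at 162 ± 34.5, 83.1 ± 2.37 and 178 ± 26.3 CPM per kb. Miat was at 4.79 ± 0.968, 1.75 ± 0.233 and 4.72 ± 0.922 CPM per kb, and Neat1 at 2.08 ± 1.64, 0.713 ± 0.248 and 0.465 ± 0.280 CPM per kb. In Control the sample ranges of Malat1 and Snhg11 overlapped, as did those of Miat and Neat1. In HFD and in HFD+Mino no neighbours in this order overlapped. Rn45s and Rn18s have no exon length in the annotation used and are not placed in the order.

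The 3 promoters are shown because Malat1, Miat and Snhg11 were all lowest in the HFD mice. RefSeq (GRCm38.p6) held promoters for 3 of the 6 members by identifier, from 250 bases before to 50 bases after the start, at chr19:5802623-5802922 (minus strand) for Malat1, chr5:112228899-112229198 (minus strand) for Miat and chr2:158375463-158375762 (plus strand) for Snhg11. Capitals mark matches on either strand to the motifs searched, which were the TATA box core (TATAAA), the CCAAT box (CCAAT), the GC box (GGGCGG) and the core of the cAMP response element (TGACG). None of these motifs contains another.
Malat1 promoter: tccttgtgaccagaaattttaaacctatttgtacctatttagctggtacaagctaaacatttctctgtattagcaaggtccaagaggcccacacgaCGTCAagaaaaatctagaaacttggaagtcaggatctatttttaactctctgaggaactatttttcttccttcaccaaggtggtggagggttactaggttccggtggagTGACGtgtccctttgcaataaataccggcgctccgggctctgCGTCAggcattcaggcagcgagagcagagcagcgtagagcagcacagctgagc
Miat promoter: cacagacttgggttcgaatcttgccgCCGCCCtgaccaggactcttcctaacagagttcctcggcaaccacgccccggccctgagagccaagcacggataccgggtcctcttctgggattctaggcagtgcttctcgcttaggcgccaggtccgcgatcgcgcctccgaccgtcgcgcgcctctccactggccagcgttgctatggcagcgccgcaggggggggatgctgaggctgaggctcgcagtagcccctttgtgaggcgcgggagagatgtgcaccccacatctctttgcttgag
Snhg11 promoter: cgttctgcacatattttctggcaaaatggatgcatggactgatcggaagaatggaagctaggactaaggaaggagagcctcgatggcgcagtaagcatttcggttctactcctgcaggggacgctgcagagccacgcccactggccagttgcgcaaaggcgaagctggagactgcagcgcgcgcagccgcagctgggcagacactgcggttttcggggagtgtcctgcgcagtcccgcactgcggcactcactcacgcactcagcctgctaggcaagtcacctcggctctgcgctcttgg
The Malat1 promoter held the cAMP response core 3 times, the Miat promoter held the GC box once, and the Snhg11 promoter held none of the 4 motifs. Of 27025 promoters of this length, 21% held the cAMP response core, 35.9% the GC box, 37.9% the CCAAT box and 14.2% the TATA box core. The promoters had 10, 25 and 21 CpG pairs and a GC content of 47.0%, 64.3% and 60.0%, beside medians of 7 and 52.7%. A match describes letters in this window, and no factor was measured.

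Other transcripts lie on the same DNA as the members. GENCODE places Gm37376 on the opposite strand within Malat1 (chr19:5801941-5802393) and Gm26953 on the opposite strand across Miat (chr5:112215461-112233720). Small transcripts lie within Malat1 (Gm27694), Neat1 (Gm27533, Gm27505 and Gm28006) and Miat (Gm27998, Gm27882, Gm27627 and Gm27357), and the small nucleolar RNAs Gm25187 and Gm25129 within Snhg11 (chr2:158375638-158386145, plus strand). Whether reads were counted by strand is not given in the sources used here, so reads of Miat and Malat1 and of their opposite-strand partners cannot be told apart.

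The other genes of these pathways were taken from lists. Among 16 further structural noncoding RNA entries in the table, 7 had enough reads to be tested and 0 were called in any of the 3 comparisons by edgeR, where 2, 0 and 3 had an unadjusted p under 0.05 in HFD against Control, HFD+Mino against HFD and HFD+Mino against Control. Over all tested genes the shares at that mark were 20.5%, 41.3% and 21.3%, and the counts for the lists that follow stand beside the same shares. The mitochondrial ribosomal RNA mt-Rnr1 was at 1809, 1195 and 444 CPM in Control, 2317, 2667 and 2408 CPM in HFD, and 4072, 4335 and 1498 CPM in HFD+Mino. It was thus above Control in HFD (log2 1.10 ± 0.48, edgeR adjusted p = 0.223), as Rn45s was, but not lower in HFD+Mino than in HFD (0.42 ± 0.47, edgeR adjusted p = 0.532). mt-Rnr2 had means of 4629 ± 2582 CPM (Control), 8210 ± 307 CPM (HFD) and 13133 ± 5676 CPM (HFD+Mino). In the paired fit, which blocks by replicate number, both met the thresholds on the higher side in HFD+Mino against Control. They also did in HFD against Control (log2 1.31 ± 0.17, edgeR adjusted p = 0.00163 for mt-Rnr1 and 1.02 ± 0.17, edgeR adjusted p = 0.00465 for mt-Rnr2). The errors of that fit are understated in comparisons with HFD, so this is not read as a rise. Rn7sk, the RNA polymerase III transcript that restrains transcription elongation, was at 2.77 ± 0.600, 5.58 ± 2.33 and 5.18 ± 2.01 CPM (SD, n = 3). The 5S ribosomal RNA entry Rn5s and all 25 n-R5s entries had 0 reads in every sample.

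Genes of RNA polymerase I transcription showed few calls. Of 31 tested, 1 was called higher and 0 lower in HFD against Control, 0 higher and 1 lower in HFD+Mino against HFD, and none between HFD+Mino and Control by edgeR, where 9 had an unadjusted p under 0.05. Their median log2 fold changes were 0.05, 0.17 and 0.02, beside 0.00, 0.01 and −0.02 over all tested genes. The called gene was Cavin1, a caveolar coat protein once described as a release factor of polymerase I, at 10.7 ± 0.810, 35.5 ± 1.55 and 9.75 ± 1.20 CPM in Control, HFD and HFD+Mino (SD, n = 3). It rose 3.31-fold in HFD (log2 1.73 ± 0.22, edgeR adjusted p = 0.00141) and fell 3.64-fold in HFD+Mino (−1.87 ± 0.22, edgeR adjusted p = 0.00121). Its call in HFD against Control was lost without Control replicate 2 or any HFD sample, and its call in HFD+Mino against HFD without HFD replicate 2 or 3, when the list had 0 calls.

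In the main edgeR fit, with no replicate block, the core polymerase I factors were not called. Polr1a, the catalytic subunit, had means of 15.2 ± 5.17 CPM (Control), 20.9 ± 3.28 CPM (HFD) and 11.2 ± 2.98 CPM (HFD+Mino). Ubtf, which binds the ribosomal gene promoter, had means of 53.0 ± 11.5, 80.5 ± 15.5 and 44.9 ± 20.1 CPM. Rrn3, which recruits the polymerase, had means of 71.0 ± 9.99, 98.9 ± 4.32 and 49.4 ± 17.1 CPM, and of these 3 genes its difference between HFD+Mino and HFD came nearest the threshold (edgeR adjusted p = 0.0186). In each of these 3 genes HFD had the highest mean, and all HFD+Mino samples lay below all HFD samples, as in 23.5% of all tested genes. The list was split in HFD+Mino against HFD, with 16 of 31 genes higher by fold change and 15 lower. Other polymerase subunits, none of them called in the main fit, lay on the higher side there, at log2 0.87 for Polr1c, 1.15 for Polr1d, 0.30 for Polr1e and 1.42 for Znrd1, and Polr1b was at −0.37. In this comparison the paired fit, whose errors against HFD are understated, called Rrn3 (log2 −1.05, edgeR adjusted p = 0.00103) and Polr1a (−0.93, edgeR adjusted p = 0.00644) lower. It called Polr1c, Polr1d and Znrd1 higher, when 25.6% of all tested genes were called.

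Genes that cut and modify ribosomal RNA had few calls. Of 119 tested, 0 were called in HFD against Control by edgeR, where 17 had an unadjusted p under 0.05 (20.5% of all tested genes did). DESeq2 called 3 there, beside 6.91% of all tested genes, and the paired fit called 5 higher and 1 lower, beside 6.22%. In HFD+Mino against HFD 1 was called, lower, and none between HFD+Mino and Control. The medians were −0.03, 0.19 and 0.02. The called gene was Gnl3l, a nucleolar GTPase, at 198 ± 37.4, 429 ± 32.04 and 146 ± 18.4 CPM (SD, n = 3), which fell 2.95-fold in HFD+Mino against HFD (log2 −1.56 ± 0.22, edgeR adjusted p = 0.00257). Fibrillarin (Fbl), which methylates ribosomal RNA, was at 15.3 ± 0.977, 21.8 ± 3.31 and 18.1 ± 1.61 CPM. Nucleolin (Ncl), which was counted in the polymerase I list, was at 174 ± 13.3, 236 ± 8.35 and 153 ± 12.8 CPM, and nucleophosmin (Npm1) at 149 ± 32.9, 187 ± 17.3 and 244 ± 108 CPM. Neither was called in any comparison of the main fit. The paired fit, with its understated error, called Ncl lower in HFD+Mino against HFD (log2 −0.62 ± 0.14, edgeR adjusted p = 0.00705).

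These counts rested on single libraries and on the pairing of samples. In HFD+Mino against HFD, the rRNA processing list had 16 genes called higher and 10 lower without HFD+Mino replicate 3, when 21.4% of all tested genes were called, and 0 called without any one HFD sample or HFD+Mino replicate 1. In the paired fit, whose errors against HFD are understated, it had 19 higher and 14 lower, when 25.6% of all tested genes were called. The polymerase I list then had 9 higher and 5 lower, and without HFD+Mino replicate 3 it had 8 higher and 4 lower. In HFD against Control the paired fit called 6.22% of all tested genes, among them 1 polymerase I gene higher and 1 lower. That fit called 3.18% between HFD+Mino and Control, among them 4 polymerase I genes and 3 rRNA processing genes, all higher.

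Of the proteins that form paraspeckles around Neat1, 31 were tested and none was called in any comparison by edgeR, where 4, 13 and 3 had an unadjusted p under 0.05, beside 20.5%, 41.3% and 21.3% of all tested genes. The medians were 0.13, −0.20 and −0.13 in the order HFD against Control, HFD+Mino against HFD and HFD+Mino against Control. Sfpq was at 27.4 ± 2.32, 25.2 ± 2.97 and 32.3 ± 6.63 CPM in Control, HFD and HFD+Mino, Nono at 139.5 ± 12.6, 149.8 ± 3.90 and 130.3 ± 13.4 CPM, and Pspc1 at 45.4 ± 3.77, 36.8 ± 3.79 and 43.1 ± 9.52 CPM (SD, n = 3). All 3 are core paraspeckle proteins, and none had group differences near those of Neat1. In HFD+Mino against HFD, 8 of the 31 were called lower without HFD+Mino replicate 3 (21.4% of all tested genes were called), 8 in the paired fit (25.6%), and 7 by DESeq2 (23%). The paired fit called 1 of them, higher, in HFD against Control.

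Among 36 proteins of nuclear speckles and of Malat1 processing, 1 was called, Srsf2, which was lowest in HFD as Malat1 was. Srsf2, an SR protein that defines speckles and promotes exon inclusion, was at 153, 174 and 134 CPM in Control, 25.9, 34.8 and 25.9 CPM in HFD, and 122, 121 and 179 CPM in HFD+Mino. The HFD mice lay far below the other 6. It fell 5.33-fold in HFD (log2 −2.41 ± 0.25, edgeR adjusted p = 0.000418) and rose 4.87-fold in HFD+Mino against HFD (2.28 ± 0.24, edgeR adjusted p = 0.000745), the latter call being lost without HFD replicate 3. Srsf1, a related SR protein, was at 156 ± 9.36, 134 ± 7.15 and 123 ± 28.2 CPM (SD, n = 3) and was not called. The list medians were −0.11, 0.02 and −0.01. In the paired fit, against the shares of all genes given for it above, the list had 4 genes called higher and 4 lower in HFD+Mino against HFD, 1 higher and 1 lower in HFD against Control, and 1 higher in HFD+Mino against Control.

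The small nucleolar RNA host genes, the class of Snhg11, had fold changes in 1 direction in both comparisons of HFD+Mino. All 17 tested had a fold change above 1 in HFD+Mino against HFD and against Control, beside 50.3% and 48.8% of all tested genes, and their medians were 1.30 and 1.26. In HFD against Control 9 of the 17 were higher and the median was 0.03. Single genes rarely passed: by edgeR 0 were called in HFD against Control, 1 higher in HFD+Mino against HFD and 0 in HFD+Mino against Control, with 1, 14 and 14 at an unadjusted p under 0.05, beside 20.5%, 41.3% and 21.3% of all tested genes. Snhg11 itself was close to Control in HFD+Mino (log2 0.14 ± 0.22), below the list median.

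The called host gene was Snhg20, at 53.4, 49.5 and 36.0 CPM in Control, 19.4, 21.2 and 15.9 CPM in HFD, and 127, 91.4 and 50.5 CPM in HFD+Mino. It rose 4.76-fold in HFD+Mino against HFD (log2 2.25 ± 0.33, edgeR adjusted p = 0.00331). Gas5, a growth arrest transcript that hosts many small nucleolar RNAs, was at 182, 164 and 86.0 CPM in Control, 203, 195 and 167 CPM in HFD, and 432, 658 and 166 CPM in HFD+Mino. It was not called in the main fit (edgeR adjusted p = 0.0659 against HFD and 0.132 against Control). The paired fit called it higher against HFD (log2 0.96 ± 0.20, edgeR adjusted p = 0.00479) and against Control (1.40 ± 0.21, edgeR adjusted p = 0.00582). The error of that fit against HFD is understated. In Gas5, HFD+Mino replicate 3 lay with the Control and HFD mice.

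The same library stood apart in the whole list. Summed levels of the host genes were 386, 338 and 199 CPM in Control, 351, 347 and 299 CPM in HFD, and 891, 1150 and 343 CPM in HFD+Mino. Without HFD+Mino replicate 3, 11 were called higher against HFD and 10 against Control (21.4% and 6.28% of all tested genes were called), and in the paired fit 10 and 4 (25.6% and 3.18%). That fit also called 1 host gene, Snhg20, lower in HFD against Control. None was called against HFD without any one HFD sample or without HFD+Mino replicate 1. HFD+Mino replicates 1 and 2 were also the libraries with the high PVN markers and with 4.68% and 6.21% of mitochondrial reads. Their 7 endothelial and blood markers summed to 479.5 and 385 CPM, against 133 CPM in HFD+Mino replicate 3 and between 108 and 314.5 CPM in Control and HFD, and the part of these in the result was not tested.

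**Figure D4:**
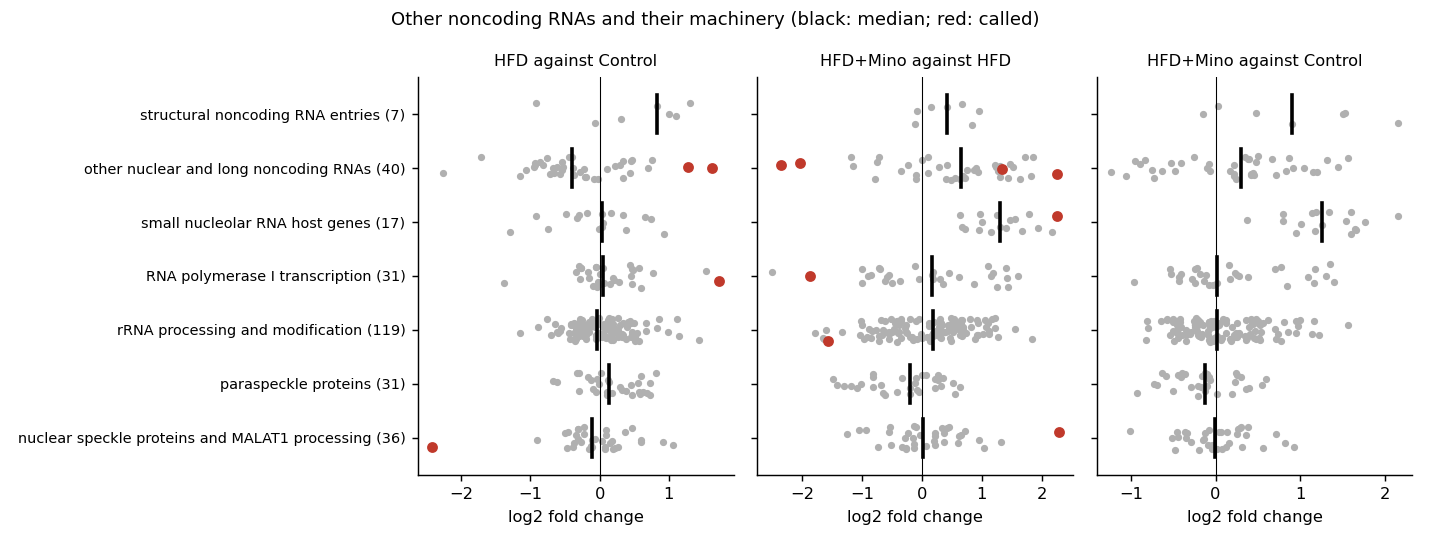
Log2 fold change (edgeR) of every tested gene of 7 lists in the 3 comparisons, with the number of genes in parentheses, black bars at the medians and red points for called genes. The small nucleolar RNA host genes are shifted above 0 in both comparisons of HFD+Mino (medians 1.30 and 1.26), while the protein lists center near 0.

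Of 40 other nuclear and long noncoding RNAs tested, 2 were called higher and 0 lower in HFD against Control, 2 higher and 2 lower in HFD+Mino against HFD, and none between HFD+Mino and Control by edgeR, where 10 had an unadjusted p under 0.05. The medians were −0.39, 0.66 and 0.30, and 12 of the 40 were higher and 28 lower by fold change in HFD, beside 50.3% of all tested genes higher. Tug1, a nuclear and cytoplasmic RNA first described in retina, was highest in HFD, as the ribosomal entries were. It was at 54.6, 79.1 and 101 CPM in Control, 241, 235 and 249.9 CPM in HFD, and 34.5, 49.6 and 58.4 CPM in HFD+Mino. It rose 3.09-fold in HFD (log2 1.63 ± 0.27, edgeR adjusted p = 0.00639) and fell 5.10-fold in HFD+Mino against HFD (−2.35 ± 0.28, edgeR adjusted p = 0.00121).

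2900097C17Rik, the mouse counterpart of the cytoplasmic RNA NORAD, had the same order, at 334 ± 48.2, 810 ± 125 and 199 ± 20.8 CPM (SD, n = 3). It rose in HFD (log2 1.28 ± 0.21, edgeR adjusted p = 0.0064) and fell in HFD+Mino against HFD (−2.03 ± 0.22, edgeR adjusted p = 0.000764). Meg3, a maternally expressed nuclear RNA, had the order of Malat1, at 796 ± 74.8, 412 ± 80.7 and 1046 ± 251 CPM (SD, n = 3). It rose in HFD+Mino against HFD (log2 1.34 ± 0.24, edgeR adjusted p = 0.00763), as did Mirg, a transcript of the same imprinted region (2.25 ± 0.41, edgeR adjusted p = 0.00791). Rian, another RNA of that region, did not (log2 −0.10, not called). In HFD against Control 0 of the list were called without Control replicate 1 or 2 or any HFD sample, or with library sizes taken from total counts. In HFD+Mino against HFD 9 were called higher and 3 lower without HFD+Mino replicate 3, and 10 and 3 in the paired fit, which also called 1 lower in HFD+Mino against Control. Neither Meg3 nor Mirg was called without Control replicate 2, any HFD sample, or HFD+Mino replicate 1 or 2, or with total-count library sizes, when 0 of the list were called higher.

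The genes most like each member were named by the Pearson correlation of log2(CPM + 1) over the 9 samples, all of which share the group differences, and it is a description only. Rn45s was most like Rn18s (r = 0.979), Dennd1b, a regulator of Rab proteins (0.978), and Ddx6, an RNA helicase of processing bodies (0.965). Ddx6 was at 18.98 ± 2.55, 96.6 ± 1.80 and 28.97 ± 8.79 CPM in the 3 groups (SD, n = 3), highest in HFD. Rn18s was most like Rn45s, Dennd1b (0.962) and Lsm12 (0.959).

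Malat1 was most like Pop4, a subunit of RNase P and RNase MRP (r = 0.988), Exosc9, a subunit of the RNA exosome (0.983), and the noncoding 1810026B05Rik (0.983). Pop4 was at 41.9 ± 12.5, 25.6 ± 2.82 and 55.5 ± 12.3 CPM (SD, n = 3). Neat1 was most like Sox2ot, a noncoding RNA that overlaps Sox2 (0.987), the ubiquitin ligase gene Rffl (0.985) and the lipid kinase gene Pip4k2a (0.983), all highest in Control. Sox2ot was at 63.8 ± 21.8, 39.0 ± 2.77 and 30.7 ± 7.66 CPM (SD, n = 3).

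Miat was most like the tetraspanin gene Tspan33 (0.983), Ptov1 (0.979) and Traf4 (0.977), and Snhg11 most like Frmpd3 (0.980), Ccdc17 (0.971) and Sobp (0.963). Ptov1 had means of 294 ± 65.4 CPM (Control), 34.0 ± 8.65 CPM (HFD) and 286 ± 93.5 CPM (HFD+Mino). Among the members, Miat and Snhg11 had a correlation of 0.90, Malat1 and Snhg11 of 0.75, and Rn45s and Miat of −0.88.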

How the data were processed

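RNA of PVN punches from 9 mice was sequenced after cDNA synthesis with the SMARTer Ultra Low Input kit, which primes on runs of A, and Nextera XT tagmentation. The authors aligned reads with HISAT2 (genome mm10), counted them per gene by featureCounts and deposited these raw counts. Versions, strand setting and the treatment of reads with several positions are not given in the sources used here. Groups and replicate numbers follow the sample titles, and the table numbers its HFD columns differently.

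Counts were fitted with edgeR 4.0.16 in R 4.3.3 (filterByExpr, TMM, quasi-likelihood, 1 mean per group over 9 samples, 3 contrasts, Benjamini-Hochberg over 17344 genes). The SE of a log2 fold change was taken from the fit. The code was tested on simulated data. The members, gene lists, naming rule and alternatives were chosen with earlier results of these data known. The naming rule takes the 6 members, the 3 genes most correlated with each, up to 4 called genes per list and comparison, and a few named regulators. mt-Rnr1, mt-Rnr2, Rn7sk, Rn5s, the n-R5s entries, Polr1b, Polr1c, Polr1d, Polr1e, Znrd1 and Rian are not covered by that rule. They were added with their values in view. Nothing in the labels says that replicates shared a litter, batch or day. Deviations from group means of same-numbered Control and HFD+Mino samples correlated at 0.217, 0.270 and 0.432, so these were treated as pairs in an alternative, a pairing that comes from the counts alone. Unlike-numbered Control and HFD+Mino samples lay between −0.263 and 0.082. Some unlike-numbered samples of other groups reached similar values, such as 0.216 for HFD replicate 1 with HFD+Mino replicate 2 and 0.207 for Control replicate 2 with HFD replicate 1. Alternatives included DESeq2 1.42.0, other scalings and filters, a trend on exon length (15625 genes), the replicate block and each sample left out. Reads carry no molecular identifiers, so precision was taken from the spread between mice. Sequences and positions are from GENCODE M21 and RefSeq GRCm38.p6, the build of mm10, and for Rn45s, Rn18s and a Neat1 promoter no sequence was used here.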

Additional observations from a re-analysis of the deposited data

How the results depend on the processing

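The number of genes called between HFD and Control was 302 (55 higher, 247 lower). It was 1198 by DESeq2 (565 higher, 633 lower), 184 with total-count scaling, 481 with no filter on low counts, 1078 with the replicate block in Control and HFD+Mino alone, 617 from the 6 samples compared, 1001 at an FDR under 0.05, and from 59 to 550 with each sample left out (59, 73 and 73 without HFD replicates 1 to 3, 180 and 91 without Control replicates 1 and 2, 550 without HFD+Mino replicate 3). Between HFD+Mino and HFD it was 719 (344 higher, 375 lower), and under the same alternatives 3992, 335, 1905, 4441, 406 and 4757, with 1369 for the block in all samples and from 29 to 3815 with each sample left out (148 without Control replicate 2, 54, 59 and 29 without HFD replicates 1 to 3, 105, 338 and 3815 without HFD+Mino replicates 1 to 3). With the trend on length removed it was 486, of which 358 were higher and 128 lower. Between HFD+Mino and Control it was 0, but 276 by DESeq2, 1 with no filter, 551 with the block in Control and HFD+Mino alone, and from 0 to 1120 with each sample left out (1120 without HFD+Mino replicate 3). Total-count scaling shifted the median of all genes by −0.179 (HFD+Mino against HFD) and −0.188 (against Control). Among the members' fold changes under alternatives that kept all 9 mice, 142 held their direction and side of the threshold or stayed within the spread, 4 moved further, 1 turned and 3 newly passed, and 18 of 18 held in the 6 samples of the groups compared. With the trend on length removed, which gives no value for Rn45s and Rn18s, Miat was at −1.77 in HFD against Control and 2.01 in HFD+Mino against HFD, Snhg11 at −1.25 and 1.66, and Neat1 turned to 0.10 in HFD+Mino against HFD. Neat1 in HFD against Control ranged from −1.88 to −0.67 with each sample left out, and DESeq2 called it in HFD+Mino against Control (−2.15). Rn45s passed there under the block in Control and HFD+Mino alone (1.15) and ranged from 0.74 to 1.57 with each sample left out, and Rn18s passed under that block (1.49). In HFD+Mino against Control the block changed no other member's call, and calls of members were not compared in the comparisons that hold HFD. The cause of these differences was not tested. In comparisons with HFD, the block in Control and HFD+Mino alone understates the errors, so its counts of 1078 and 4441 are a description only.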
